A study of Rattus norvegicus with 6 samples.

Results

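The genes described here make cholesterol in the liver, control that synthesis through the transcription factor SREBP-2, and move or store the product. They were chosen by name: every non-control probe whose accession maps to 1 of 28 listed rat symbols was taken, and the rule itself uses no measured value, although the list was drawn up with earlier results of these data known. Of the 28 genes, 27 had a probe and 26 were tested, with 51 of their 53 probes, out of 10251 genes and 33428 probes tested in all. The listed genes fall into a mevalonate section of 8, a sterol section of 12, a control section of 4 (Srebf2, Scap, Insig1, Insig2) and a transport and storage section of 4 (Stard4, Soat1, Soat2, Npc1). Lbr, a sterol reductase of the nuclear envelope, had no matched probe. The only probe of Soat1, a cholesterol-esterifying enzyme, was well above background on 0 of 6 arrays, as was a further probe of Srebf2.

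Livers of male rats (strain Sprague-Dawley, Crl:CD(SD)) were profiled for gene expression; the rats were 5 weeks old at purchase and ate a basal diet. Of the 6 rats, 3 received corn oil, the vehicle, and 3 received o-anthranilic acid, an aminobenzoic acid and breakdown product of tryptophan, at 1000 mg/kg/day. The labels give 9 weeks of dosing in one place and measurement at 28 days in another, so the duration is unknown. Each rat had 1 single-colour Agilent array, and the labels describe different animals in each group.

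Cholesterol synthesis starts from acetyl-CoA, runs through mevalonate and the isoprenoids to squalene, and then through lanosterol to cholesterol. SREBP-2, the product of Srebf2, is held in the endoplasmic reticulum by SCAP and the INSIG proteins while sterols are plentiful; when sterols fall, SCAP escorts it to the Golgi, where proteases release the part that switches on the synthesis genes. Insig1 is itself a target of SREBP-2 in many cells, so its level commonly moves with that of the synthesis genes. In the liver this route sits beside SREBP-1c, which drives fatty acid synthesis.

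No gene among the 26 passed the test in limma after Benjamini-Hochberg adjustment, the smallest adjusted p being 0.388. Of all 10251 genes, each by its brightest tested probe, 0 passed (smallest adjusted p 0.0604), with 561 higher and 630 lower at an unadjusted p under 0.05. Among all 33428 probes, 11 passed the adjusted test, which is 0.0329%. Of the 19 tested synthesis genes, 14 had a mean above that of corn oil, with a median difference of 0.22 (log2, anthranilic acid minus corn oil), against 52.0% of all genes above 0 and a median of 0.01. The 19 genes moved largely together by rat, so they are not separate observations. Their count above 0 was 11 without corn oil array 2 or without anthranilic acid array 2. By the brightest probe of each, Insig1 stood lower in every treated rat than in any control, and Stard4, a cholesterol carrier, was higher on average. Of the 4 Insig1 probes, 2 had groups that did not overlap. At an unadjusted p under 0.05, Insig1 and Stard4 were the only members past the threshold, 1 higher and 1 lower of 26. The background at that threshold was 5.47% of all genes higher and 6.15% lower, so the members' counts lie near it. For groups that do not overlap at all, Nsdhl was the only member higher and Insig1 the only member lower, against 10.7% and 9.12% of all genes. The 3 arrays per group limit the precision. Each p-value sets a difference against the spread within groups, which limma draws toward that of all tested probes. With 1 array per rat, that spread holds animal and array variation together.

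The sequences shown here are the promoters of Insig1, the member past the unadjusted threshold that the promoter table holds, and of its paralogue Insig2. They are the 250 bases before each RefSeq start (GRCr8), read 5′ to 3′ on the gene's strand. Capitals mark a CCAAT box, which binds NF-Y, a factor that works beside SREBP at many of these genes, in its reverse form ATTGG. In Insig1 they also mark CACGTG, the E-box.
Insig1, chr4:8057770-8058019, minus strand: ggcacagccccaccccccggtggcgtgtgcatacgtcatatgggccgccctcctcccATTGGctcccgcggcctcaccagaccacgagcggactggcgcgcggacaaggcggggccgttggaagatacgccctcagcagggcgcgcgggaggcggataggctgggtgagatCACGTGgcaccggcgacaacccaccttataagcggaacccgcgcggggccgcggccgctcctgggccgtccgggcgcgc
Insig2, chr13:35040099-35040348, minus strand: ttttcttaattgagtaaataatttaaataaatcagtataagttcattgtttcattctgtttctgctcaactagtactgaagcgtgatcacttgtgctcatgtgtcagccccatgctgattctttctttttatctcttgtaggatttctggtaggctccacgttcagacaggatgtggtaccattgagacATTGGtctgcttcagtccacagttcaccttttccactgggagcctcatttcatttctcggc
The CCAAT box of Insig1 lay 193 to 189 bases before the start and its E-box 79 to 74 bases before it, while the CCAAT box of Insig2 lay 61 to 57 bases before the start.

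A set of 3 motifs was searched on both strands of this window in 27457 promoters, of which 23 belong to members; Pmvk, Fdft1, Sqle, Stard4 and Soat2 are the other members. TCACNCCAC, the core of a sterol regulatory element with N for any base, was present in 0.976% of all promoters and in 0 of the 23. CCAAT was present in 34.3% of all promoters and in 18 of the 23. CACGTG, whose search was added after the Insig1 promoter had been read, was present in 5.79% of all promoters and in 3 of the 23, namely Insig1, Sc5d and Scap. CCAAT and CACGTG cannot overlap each other. A match describes the letters only.

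The synthesis genes varied from rat to rat largely in step. Relative to each gene's corn oil mean, the median over the 19 genes was -0.01, -0.33 and 0.42 in the corn oil arrays 1, 2 and 3, and 0.41, 0.31 and -0.25 in the anthranilic acid arrays 1, 2 and 3. Corn oil 3 and anthranilic acid 1 and 2 were therefore high, and corn oil 2 and anthranilic acid 3 low, so that the groups overlapped. In corn oil 2 only 1 of the 19 genes was above its own mean over the 6 arrays and in anthranilic acid 3 only 3 were, against 17 in each of corn oil 3 and anthranilic acid 1 and 2. Of the 19 genes, 10 had their lowest value in corn oil 2 and 7 in anthranilic acid 3.

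**Figure D1:**
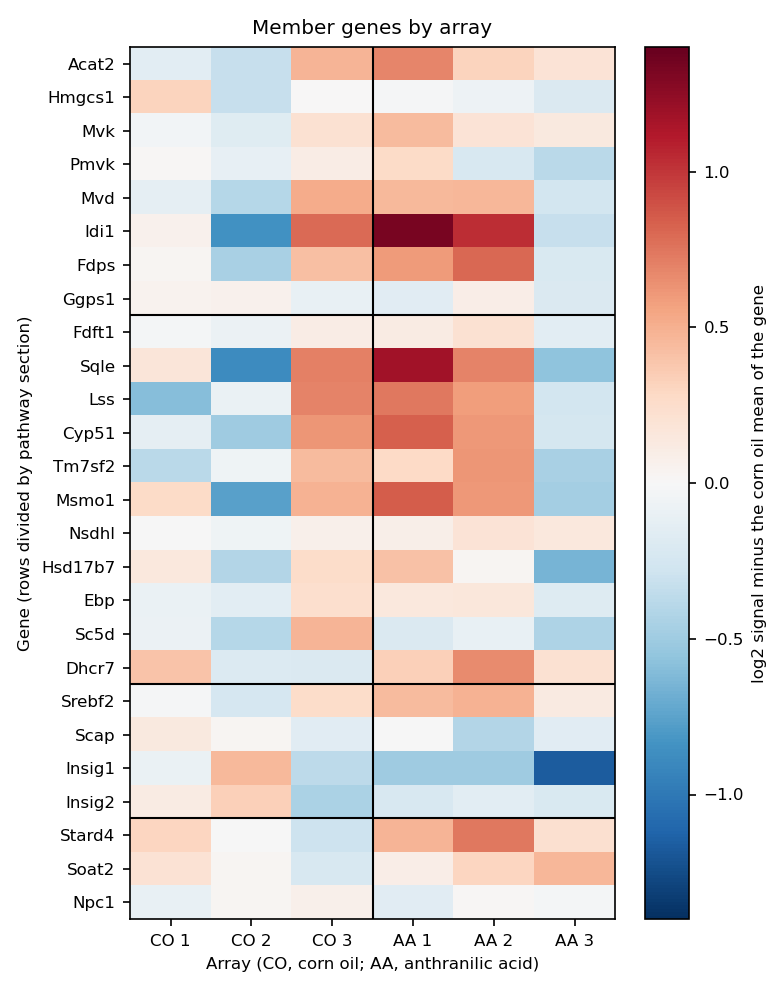
Colour shows, for each tested member gene (vertical axis) and array (horizontal axis), log2 signal minus the gene's corn oil mean, from -1.4 to 1.4, with horizontal lines between the mevalonate, sterol, control, and transport and storage sections. Idi1, Sqle and other synthesis genes are blue in corn oil 2 and anthranilic acid 3 and red in corn oil 3 and anthranilic acid 1 and 2, whereas Insig1 is blue in all 3 treated arrays.

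In the mevalonate section all 8 genes were tested, of which 5 were higher and 3 lower in the treated livers, with a median difference of 0.24 and a range from -0.11 to 0.68. Acat2, the thiolase that joins acetyl-CoA units, stood at 1.75, 1.57 and 2.37 in corn oil and 2.58, 2.21 and 2.09 in anthranilic acid (log2 of signal over the array's 75th percentile). Corn oil 3 lay above 2 of the treated arrays, and the difference was 0.40 (SE 0.24, limma adjusted p = 0.524). It was 0.63 without corn oil 3 (unadjusted p = 0.0136), 0.23 without corn oil 2 and 0.25 without anthranilic acid 1. Mvk, mevalonate kinase, read -1.06, -1.19 and -0.81 against -0.58, -0.84 and -0.88. Its groups overlapped at corn oil 3, with a difference of 0.26 (SE 0.14, adjusted p = 0.481), which was 0.16 without anthranilic acid 1 and 0.36 without corn oil 3 (unadjusted p = 0.0386). Idi1, the isomerase that makes the second isoprenoid building block, read 1.58, 0.66 and 2.30 against 2.85, 2.55 and 1.19, the widest spread of the section. Corn oil 3 lay above anthranilic acid 3, and corn oil 2 was lowest. Its difference of 0.68 had a 95% interval from -0.67 to 2.04 (adjusted p = 0.636), and its 3 probes gave 0.68 to 0.73. It was 0.26 without corn oil 2, 0.36 without anthranilic acid 1, 1.08 without corn oil 3 and 1.18 without anthranilic acid 3. Fdps, which makes farnesyl diphosphate, differed by 0.39 (SE 0.33; 0.17 without corn oil 2, 0.19 without anthranilic acid 2 and 0.60 without corn oil 3), and Mvd, the decarboxylase, by 0.22 (SE 0.30). Hmgcs1, which makes HMG-CoA, Pmvk, the kinase after Mvk, and Ggps1, which makes geranylgeranyl diphosphate, lay between -0.11 and -0.09. Pmvk was lower at an unadjusted limma p under 0.05 without anthranilic acid 1, and 0.03 without anthranilic acid 3.

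The sterol section had 11 tested genes, 9 higher and 2 lower, with a median difference of 0.15 and a range from -0.24 to 0.44. Dhcr7, which carries out the last reduction of one route to cholesterol, read 3.00, 2.42 and 2.40 in corn oil and 2.94, 3.27 and 2.82 in anthranilic acid. Corn oil 1 lay above 2 of the treated arrays, and the difference was 0.40 (SE 0.20, limma adjusted p = 0.461). It was 0.60 without corn oil 1 (unadjusted p = 0.0110), 0.31 without corn oil 2 and 0.30 without corn oil 3. Nsdhl, the sterol dehydrogenase of C4 demethylation, read 2.97, 2.92 and 3.05 against 3.06, 3.17 and 3.13, the narrowest spread of the section. Its groups did not overlap, yet the difference was 0.14 (SE 0.08, adjusted p = 0.527). Sc5d, the desaturase that introduces the last ring double bond before Dhcr7, read 3.13, 2.82 and 3.69 against 3.01, 3.11 and 2.79, with overlapping groups and corn oil 3 highest. Its difference was -0.24 (SE 0.23, adjusted p = 0.682), and it was -0.0049 without corn oil 3, -0.15 without anthranilic acid 3 and -0.44 without corn oil 2. Sqle, the squalene epoxidase that controls entry to the sterols, read 1.46, 0.41 and 1.99 against 2.46, 1.98 and 0.73. It followed the pattern of Idi1, low in corn oil 2 and anthranilic acid 3, and differed by 0.44 (SE 0.56). Without corn oil 2 it was -0.0013, without anthranilic acid 1 it was 0.07, and without corn oil 3 or anthranilic acid 3 it was 0.79 or 0.94. Cyp51, Lss and Msmo1, which demethylate or close the sterol ring, differed by 0.40, 0.36 and 0.33. Tm7sf2, a sterol reductase, differed by 0.15, and Ebp, an isomerase, by 0.04 (-0.03 with quantile normalisation). Hsd17b7, a ketosteroid reductase, differed by -0.07, while its other probe gave 0.05, of opposite sign. The brighter probe of Fdft1, squalene synthase, gave 0.06 and the other probe 0.54 (unadjusted p = 0.0109, adjusted p = 0.306), so the probes disagreed; that second probe was 1 of 2 of the 51 member probes higher at an unadjusted p under 0.05, with 2 lower, against 5.72% and 6.52% of all probes.

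Omitting single arrays moved these medians. For the mevalonate section the median was 0.09 without corn oil 2 and 0.42 without corn oil 3, and with the slide as a block, which equals leaving out anthranilic acid 3, it was 0.39. For the sterol section the same values were 0.02, 0.30 and 0.45, and it was 0.06 without corn oil 1, 0.23 with array weights and 0.30 with the mean of all tested probes of a gene in place of the brightest. Leaving out anthranilic acid 1 gave 0.13 and 0.07, and leaving out anthranilic acid 2 gave 0.14 and 0.11. The count of synthesis genes above 0 was 11 without corn oil 2 or without anthranilic acid 2, and 16 with the slide block. With the slide block Fdps differed by 0.70 (unadjusted p = 0.0455), with an adjusted p of 0.463 in that fit.

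**Figure D2:**
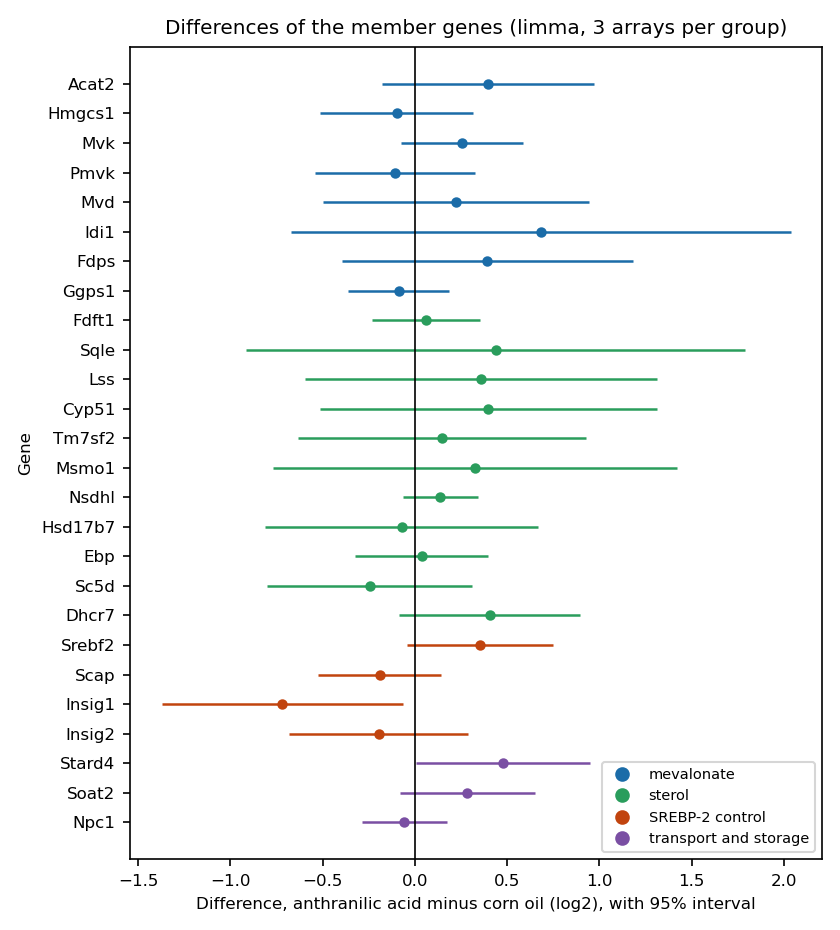
Points give the difference of each of the 26 tested genes (log2, anthranilic acid minus corn oil, horizontal axis) with its 95% interval from limma, coloured by section, 3 arrays per group. The interval of Insig1 lies below 0 and that of Stard4 above it, while all other intervals include 0.

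The spread within groups was large for these genes. The median within-group SD over all genes was 0.15, and 16 of the 19 synthesis genes exceeded it. Of these, 9, a set chosen after the values were seen, lay above the 90th percentile: Mvd, Idi1, Fdps, Sqle, Lss, Cyp51, Tm7sf2, Msmo1 and Hsd17b7. Idi1 and Sqle had SDs of 0.85 each, at the 98.3 percentile, whereas Nsdhl had an SD of 0.06, at the 8.33 percentile. Of the 9, 8 are in the promoter table and 7 hold a CCAAT box, and of the other 10 tested synthesis genes 8 are in it and 6 hold the box. For these 7, 29 bases around the CCAAT box nearest the start are shown, with the box in capitals, as CCAAT or its reverse ATTGG, on the gene's strand.
Mvd, chr19:67414993-67415021, minus strand: ggcccgtcgcctATTGGacggcacgggag
Idi1, chr17:66547543-66547571, minus strand: gtcgaagatgccATTGGctggcgaccgac
Fdps, chr2:176804885-176804913, minus strand: gaggtcattcagCCAATcagcgaactcgg
Lss, chr20:12118296-12118324, minus strand: ggtgatgctctgATTGGccgcgctcgcat
Tm7sf2, chr1:212789614-212789642, minus strand: ctcccagcgttgATTGGctactgtgctgg
Msmo1, chr16:29747033-29747061, plus strand: gagtggggcggaCCAATtacgacaggagc
Hsd17b7, chr13:84722763-84722791, minus strand: ggttgagccttgATTGGtcggggtgcgcg
These windows were chosen after the values were seen and are GRCr8 coordinates.

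Among the 4 genes of SREBP-2 control, 1 was higher and 3 were lower, with a median of -0.19, which was -0.10 without corn oil 2 and -0.35 without corn oil 3. Srebf2 read 2.10, 1.88 and 2.37 in corn oil and 2.56, 2.60 and 2.24 in anthranilic acid. Anthranilic acid 3 lay below corn oil 3, and the difference was 0.35 (SE 0.16, unadjusted p = 0.0734, limma adjusted p = 0.439); the other tested probe gave 0.19. With the slide block it was 0.47 and without corn oil 3 it was 0.48, at unadjusted p of 0.0345 and 0.0254, and the p was also under 0.05 with normexp, median scaling and array weights. It was 0.23 without corn oil 2, 0.28 without anthranilic acid 2 and 0.27 with the mean of its probes, at unadjusted p of 0.215, 0.190 and 0.127. Scap, the escort, read 3.01, 2.90 and 2.71 against 2.87, 2.46 and 2.72. Its groups overlapped, with anthranilic acid 2 lowest and a difference of -0.19 (SE 0.14, adjusted p = 0.591), which was -0.08 without anthranilic acid 2 and -0.12 without corn oil 1. Insig2, the second anchor, read 5.72, 5.94 and 5.15 against 5.38, 5.45 and 5.39. Its treated arrays lay inside the range of corn oil, with a difference of -0.20 (SE 0.20, adjusted p = 0.708), which was -0.03 without corn oil 2 and -0.42 without corn oil 3 (unadjusted p = 0.0114).

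Insig1 read 4.76, 5.31 and 4.49 in corn oil and 4.35, 4.36 and 3.69 in anthranilic acid. Every treated rat lay below every control, with anthranilic acid 3 lowest and corn oil 2 highest. The difference was -0.72 (SE 0.27, 95% interval -1.37 to -0.07), or 1.65-fold lower, with an unadjusted p of 0.0358 and a limma adjusted p of 0.388. Its 4 probes gave -0.80 to -0.66, and the groups did not overlap for 2 of the 4. Without anthranilic acid 3 the difference was -0.50 (unadjusted p = 0.100), without corn oil 2 it was -0.49 (unadjusted p = 0.0964) and without corn oil 1 it was -0.76 (unadjusted p = 0.0628). Below 0 in all 18 alternatives, it was at an unadjusted p under 0.05 in 14 of them. The filter, replicate block and variance alternatives left the difference at -0.72 by construction, and the deposited table carries nearly the same scaling. The slide block repeats the fit without anthranilic acid 3, and the replicate block pairs different animals. The 18 are therefore not separate checks.

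**Figure D3:**
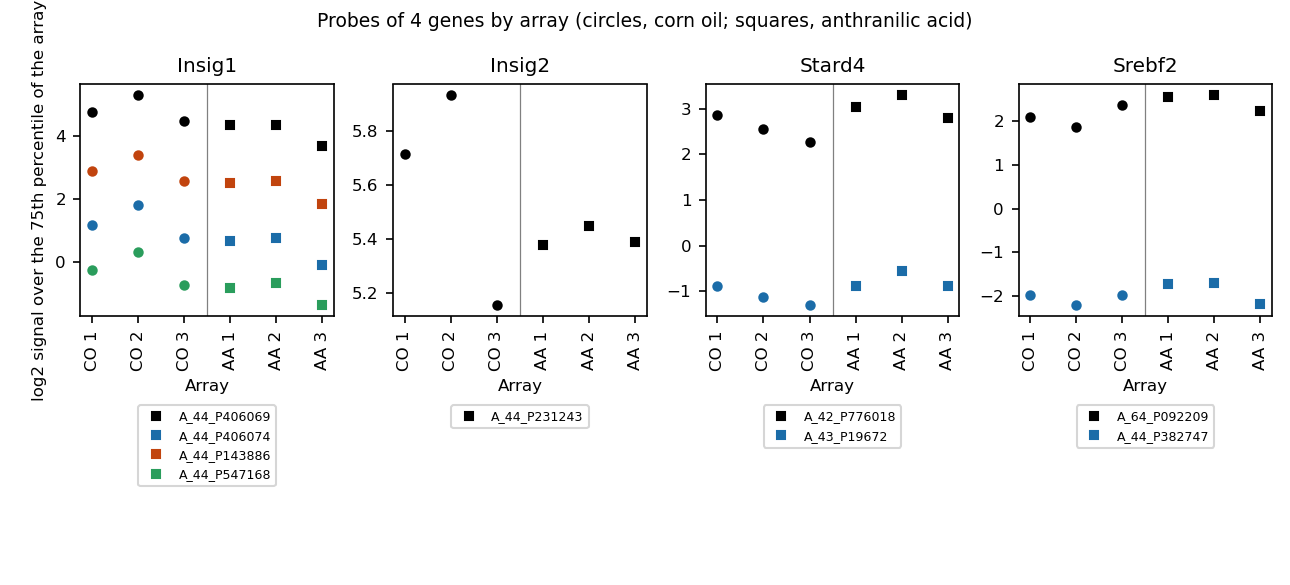
Log2 signal over the array's 75th percentile (vertical axes, which differ between panels) by array, for each tested probe of Insig1, Insig2, Stard4 and Srebf2; circles are corn oil, squares anthranilic acid and colours are probes, whose levels are not comparable with each other. All 4 Insig1 probes are lowest in anthranilic acid 3 and highest in corn oil 2.

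Set beside the synthesis genes, Insig1 ran the opposite way in part. Its deviation from its corn oil mean was -0.09, 0.45 and -0.36 in corn oil and -0.50, -0.49 and -1.16 in anthranilic acid, while the synthesis median in the same arrays was -0.01, -0.33, 0.42, 0.41, 0.31 and -0.25. In corn oil 2 Insig1 was high where the synthesis genes were low, and in corn oil 3 the reverse held. In anthranilic acid 3 both were low. Insig1 minus the synthesis median was -0.08, 0.78 and -0.78 in corn oil and -0.91, -0.80 and -0.92 in anthranilic acid. This comparison was chosen after the values were seen and has no test.

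**Figure D4:**
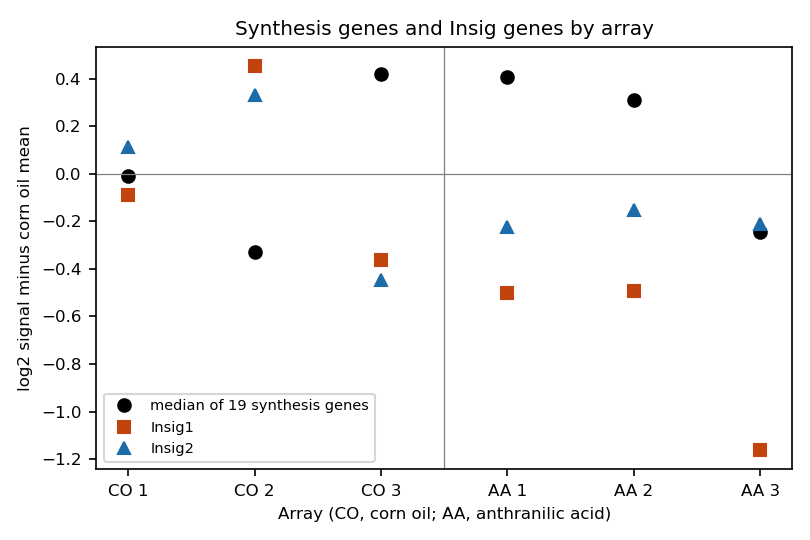
Points give log2 signal minus the corn oil mean (vertical axis) for the median of the 19 synthesis genes, Insig1 and Insig2 in each array (horizontal axis). The synthesis median is high in corn oil 3 and anthranilic acid 1 and 2, whereas Insig1 is below 0 in all treated arrays, down to -1.16 in anthranilic acid 3.

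Of the 3 tested transport and storage genes, 2 were higher and 1 lower, with a median of 0.29 that was 0.17 without corn oil 3 and 0.18 with normexp. Stard4, which carries cholesterol between membranes and is a target of SREBP-2, read 2.86, 2.55 and 2.27 in corn oil and 3.04, 3.30 and 2.78 in anthranilic acid. Anthranilic acid 3 lay below corn oil 1, so the groups overlapped. The difference was 0.48 (SE 0.19, 95% interval 0.01 to 0.95), or 1.39-fold higher, with an unadjusted p of 0.0476 and a limma adjusted p of 0.404. A second probe gave 0.33 (limma unadjusted p = 0.0636). Its groups did not overlap, but only narrowly, with anthranilic acid 1 at -0.892 and corn oil 1 at -0.894. Stard4 was above 0 in all 18 alternatives and at an unadjusted p under 0.05 in 11. As for Insig1, the filter, replicate block and variance alternatives left its difference unchanged by construction. Without corn oil 3 it was 0.33 (unadjusted p = 0.137), without anthranilic acid 2 it was 0.35 (unadjusted p = 0.141), and without corn oil 2 or anthranilic acid 1 the unadjusted p was 0.0985 or 0.0976. Soat2, the cholesterol-esterifying enzyme of hepatocytes, read 0.92, 0.73 and 0.48 against 0.81, 1.01 and 1.17. Anthranilic acid 1 lay below corn oil 1, and the difference was 0.29 (SE 0.15, adjusted p = 0.476), which was 0.17 without corn oil 3 and 0.18 with normexp. Npc1, which exports cholesterol from lysosomes, read 4.42, 4.55 and 4.59 against 4.36, 4.54 and 4.50, with overlapping groups and a difference of -0.06 (SE 0.09, adjusted p = 0.832), and every array left out kept it between -0.11 and -0.0035. Its 7 probes ranged from -0.22 to 0.08, 5 of them below 0. A dimmer probe at -0.22 (limma unadjusted p = 0.0421, adjusted p = 0.397) and another at -0.16 (unadjusted p = 0.129) had groups that did not overlap.

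The neighbouring pathways were read from lists chosen with earlier results known, and none of their genes passed the adjusted test. Among 9 tested of 11 listed genes of SREBP processing and INSIG turnover, 6 were higher and 3 lower (median 0.06). Pgrmc1, a membrane haem-binding protein, differed by 0.23 (unadjusted p = 0.0398) and Mbtps2, the protease that frees SREBP, by 0.10. Of 12 tested of 13 cholesterol trafficking genes, 8 were higher and 4 lower (median 0.04), with Nceh1, a cholesterol ester hydrolase, at -0.50 and Gramd1c at -0.21. Of 6 tested of 7 LXR and efflux genes, 4 were higher and 2 lower (median 0.13), with Mylip, a ubiquitin ligase, at 0.26 (unadjusted p = 0.0458) and Nr1h3, the receptor LXR-alpha, at -0.15. Of 9 tested of 10 genes of the other isoprenoid branches, 4 were higher and 5 lower (median -0.01), with Pdss2 at 0.12 and Rabggta at 0.11. The 4 genes listed for acetyl-CoA supply were all above 0 (median 0.46), against 52.0% of all genes. Acly was at 0.44, Acss2 at 0.48, Aacs at 0.55 and Slc25a1 at 0.01. All had overlapping groups, and 0 were at an unadjusted limma p under 0.05.

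The 5 tested of 6 SREBP-1 lipogenesis genes were all above 0 with a median of 0.62. Scd, the stearoyl-CoA desaturase, read 1.47, 0.54 and 3.58 in corn oil and 4.42, 6.16 and 5.34 in anthranilic acid. Its groups did not overlap, though corn oil 3 stood well above the other controls, and the difference was 3.44 (SE 0.82, limma adjusted p = 0.257). Acaca, acetyl-CoA carboxylase, differed by 0.62 (unadjusted p = 0.0279). Fasn, Elovl6 and Me1 had overlapping groups and differed by 0.63, 0.53 and 0.29, at limma unadjusted p of 0.265, 0.261 and 0.214. Fasn was lowest in anthranilic acid 3.

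The arrays were alike in brightness. Between 53.3% and 58.0% of probes were well above background per array, and the 75th percentile signal ran from 489 to 523. Corn oil 1 to 3 and anthranilic acid 1 and 2 lay on 1 slide, where treatment and the slide row cannot be told apart, and anthranilic acid 3 lay on another slide with another scan. Hepatocyte markers, whose 8 genes include albumin, summed to 4933 to 5080 in corn oil and 4581 to 4706 in anthranilic acid (linear signal over the 75th percentile). All 8 were well above background, and 6 of the 8 were lower without overlap, against 9.12% of all genes. The median difference of the 8 was -0.09. Apoa1, at -0.57, was the only 1 at an unadjusted limma p under 0.05. The others without overlap lay between -0.13 (Ahsg) and -0.06 (Alb), and Cps1 was above 0, at 0.09. Kupffer cell markers, 5 of 5 tested, summed to 75.2 to 100.2 and 60.0 to 89.7. All 5 were below 0, with a median difference of -0.20, overlapping groups and 0 at an unadjusted limma p under 0.05. Lymphocyte markers, 5 of 7 tested (not Cd3e or Ms4a1), summed to 1.83 to 2.04 and 2.50 to 3.24. All 5 were above 0, against 52.0% of all genes, and 4 were higher at an unadjusted limma p under 0.05, against 5.47%. Endothelial markers, 3 of 4 tested, summed to 45.8 to 46.3 and 42.4 to 46.7, and stellate markers, 5 of 5, to 29.4 to 31.4 and 25.6 to 32.7. The endothelial sum hides Lyve1, lower by -0.34 without overlap, beside Pecam1 at -0.02 and the brightest marker, Kdr, at -0.01. Cholangiocyte markers, 3 of 4, summed to 0.917 to 1.39 and 0.932 to 1.00, and erythroid markers, 3 of 4, to 478 to 805 and 693 to 846. All 3 erythroid markers were above 0, with a median difference of 0.33, overlapping groups and 0 at an unadjusted limma p under 0.05. The cholangiocyte markers went opposite ways, with Epcam at -0.53 without overlap, Krt19 at 0.60 and Krt7 at 0.31. In bulk liver, fewer cells of a type and less RNA per cell cannot be told apart, and the part of these markers in the differences was not tested.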

How the data were processed

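Per the file headers, the authors extracted each spot's intensity with Agilent Feature Extraction 10.7.1.1 (10.7 in the submitters' processing notes), and these deposited intensities carry no scaling from one array to another. The authors' deposited table holds the ratio of that signal to a single value per array, within 0.126% of the array's 75th percentile, and served as an alternative. Its column medians ran from 0.0887 to 0.0976.

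The log2 processed signal minus each array's 75th percentile was modelled for all tested probes by the lmFit and eBayes functions of limma 3.58.1 (R 4.3.3; 2-sided; degrees of freedom 4 residual, 2.30 prior), with Benjamini-Hochberg adjustment at 0.05. Adjusted p-values are from this fit unless an alternative is named beside them, and those are from limma too. Control spots and 14 outlier spots of 369942 were left out. Tested probes were well above background throughout at least 1 group of 3 arrays and had 2 or more usable spots per group. Accessions were matched to RefSeq symbols (GRCr8), which named 27447 of 61657 probes (44.5%). The brightest tested probe stood for a gene. Promoters came from RefSeq (GRCr8), and the file headers name the build rn4, so array coordinates were not used.

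Values by array are given for members at an unadjusted p under 0.05 and the 3 members of each section with the smallest p. Companion lists name the 2 genes with the smallest p, and all tested genes of acetyl-CoA supply and SREBP-1 lipogenesis are named. The values by array of Sqle, Insig2 and Scd were added after values were seen, as were the further genes of those 2 companion lists. Members and lists were chosen with earlier results of these data known. The fit was tested on simulated data. Alternatives changed the background correction, scaling, dim-probe filter, slide, replicate block, variance model, array weights, table, probe summary and each array. Same-numbered rats correlated at 0.07, -0.05 and -0.04 in their deviations from group means and are different animals, so numbers did not pair them.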

Additional observations from a re-analysis of the deposited data

How the results depend on the processing

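Over the 18 alternatives, 0 members passed the adjusted threshold (limma, smallest adjusted p 0.304), and neither the section medians nor the members chosen by the naming rule changed sign. The filter, replicate block and variance alternatives left these differences as they were, so they could not turn a sign. Against 11 probes called, there were 50 with normexp background correction, 21 with median scaling, 2 without a dim-probe filter, 2 with only probes above background on all 6 arrays, 6 with the slide block, 2 with the replicate block, 18 with array weights and 45 with a robust, trended variance. Leaving out 1 array gave 2 to 8. Against 2 members at an unadjusted p under 0.05, there was 1 with quantile normalisation, 4 with median scaling, 3 each with normexp, array weights and the slide block (Fdps, Srebf2 and Stard4 in the last, without Insig1), 1 with the percentile over probes above background on all arrays and 1 without a filter; leaving out 1 array gave 0 to 5. The replicate block left the count of members at 2. The share of all genes at that p was counted in the main fit only, at 5.47% higher and 6.15% lower (limma). The members' counts under the alternatives therefore have no background beside them and are not read as a result. Where 1 array is left out of a group, the other 2 set that group's spread together with the opposite group. Of the named genes' and sections' values, 267 counted as unchanged, while 11 genes' values lost an unadjusted limma p under 0.05 and 10 gained it. A gene's value counted as unchanged where it kept its direction and its side of that p. A section's median did where it moved by less than its spread between replicate arrays. That spread was 0.33 for the mevalonate and 0.38 for the sterol section, wider than their medians of 0.24 and 0.15. Ebp was the only member whose sign turned under another scaling or background correction, from 0.04 to -0.03 with quantile normalisation. With an array left out, array weights or the slide block, Ebp, Pmvk, Hsd17b7, Hmgcs1, Tm7sf2, Sqle, Msmo1 and Fdft1 each turned sign at least once. Median scaling shifted the median of all genes to 0.06. The cause of these moves was not tested, and 3 arrays per group limit the precision.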
